A study of Homo sapiens with 15 samples.

Results

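Cells of the human colorectal carcinoma line HCT116 were profiled after exposure to a hybrid molecule or to a mixture of the drugs it was built from. The hybrid, SARB, was made by an esterification that joins a derivative of thymoquinone (TQ) to a derivative of 5-fluorouracil (5-FU), and it was given at 35 µM. The mixture, Combi, held TQ at 35 µM and 5-FU at 35 µM, so that hybrid and mixture were matched in the nominal amount of each partner. Both exposures lasted 24 h, and each had 3 samples that the series describes as biological replicates. The question was how far linking the drugs in 1 molecule changes the transcript response compared with giving them side by side, and all 730 endogenous genes of the NanoString PanCancer Pathways panel were compared between the 3 SARB and 3 Combi samples, which are 6 of 15 in the series. Untreated control cells, cells given 40 µM TQ and cells given 15 µM 5-FU, also at 24 h and with 3 samples each, served as reference levels, and the doses of the single drugs differed from those in Combi. In this assay a pair of probes captures each transcript and carries a color code that is counted without amplification, and each sample was scaled to 1 common level of its 40 housekeeping genes, taken as their geometric mean.

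No cartridge of the assay held both groups. The first held all SARB, TQ and 5-FU samples with control replicate 1, the second held Combi replicate 1 with control replicates 2 and 3, and the third held Combi replicates 2 and 3. Hybrid against combination and first cartridge against the other cartridges therefore cannot be told apart by the direct comparison, and a fit with cartridge as a block was set beside it. That fit reaches Combi through replicate 1 and the controls of the second cartridge, and SARB through control replicate 1 alone, so its standard errors are larger. Endogenous counts summed to 226357 to 568343 in SARB and 287333 to 607782 in Combi. Of 7 epithelial genes, all were above the negative probes in every sample of SARB, Combi and control.

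TQ is the quinone of black seed oil and is known as a redox-active compound that triggers stress signaling. 5-FU is a fluorinated uracil that blocks thymidylate synthase and enters RNA and DNA, and its best known transcript response runs through p53, the transcription factor stabilized by DNA damage. The panel also covers the growth factor, Notch, WNT, TGF-β and NF-kB pathways, in which a ligand binds a membrane receptor and the signal ends at transcription factors such as FOS, ID1, HES1 and RELA.

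Of the 730 genes, 7 were called higher in SARB than in Combi (0.959%) and 82 were called lower (11.2%), a call being an edgeR Benjamini-Hochberg adjusted p of at most 0.05 together with a fold change of at least 1.5. The fold changes reached 4.83 among the higher genes and lay between 1.50 and 7.47 among the lower genes. All 3 SARB samples lay above all 3 Combi samples in 36 genes (4.93%) and below them in 211 genes (28.9%). In 206 genes (28.2%) the 95% interval of the difference lay within 1.5-fold in both directions, and in 435 genes it was neither within that range nor was the gene called. With the cartridge block 75 genes had an interval within 1.5-fold, so a narrow interval without it does not show equal effects of SARB and Combi. Counts for the gene lists below are to be read beside these shares of all genes: 0.959% higher, 11.2% lower and 28.2% within 1.5-fold. A list near these shares shows nothing particular to its members. Of all genes not called, 44 had an edgeR adjusted p of at most 0.05 with a change under 1.5-fold. The median log2 difference of all genes was -0.32, which TMM normalization, a scaling to the bulk of all genes, moved to -0.06. TMM also moved the calls to 39 higher and 54 lower, so the list counts below, made without TMM, depend on the scaling. Without SARB replicate 2 there were 148 lower genes, without SARB replicate 3 there were 40, without Combi replicate 3 there were 49, and without Combi replicate 1 there were 12 higher genes. Negative probes, which have no target, averaged 14.5 scaled counts in SARB replicate 2 and 2.84 in SARB replicate 3, against 6.44 to 13.0 in Combi, and the part of this background in the low genes was not tested.

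**Figure D1:**
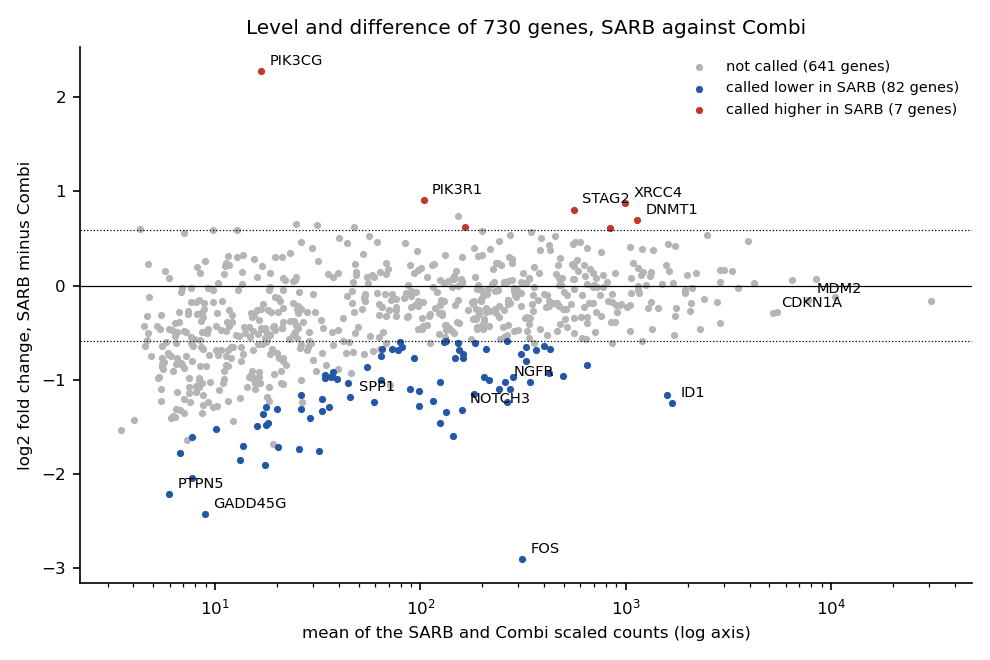
Each point is 1 of the 730 genes, with the mean of the SARB and Combi scaled counts on a log axis and the log2 difference SARB minus Combi on the other axis, and dotted lines mark 1.5-fold. The 82 genes called lower spread over all levels with FOS farthest down, and the 7 called higher lie above the upper line.

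Set against control, SARB had 63 genes higher (8.63%) and 146 lower (20%), and Combi had 99 higher (13.6%) and 48 lower (6.58%). These comparisons share the 3 control samples, so they are given side by side only. They also mix treatment with cartridge, since SARB shared its cartridge with control replicate 1 alone and Combi replicates 2 and 3 with no control. All calls against control, here and below, were made without the cartridge block. Of the 82 genes lower in SARB than in Combi, 39 were called lower than control in SARB and not called in Combi. Another 25 were called higher than control in Combi and not called in SARB, 3 were called higher in both, 1 lower in both, 13 in neither, and 1 gene, FOS, was called lower in SARB and higher in Combi. Of the 7 genes higher in SARB than in Combi, 3 were called lower than control in Combi alone, 2 higher than control in SARB alone and 2 in neither.

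The cartridges moved with many of these differences. Control replicate 1, which shared the cartridge of SARB, lay below both other controls in 60 of the 82 lower genes (73.2%), against 389 of all 730 genes (53.3%), and above both in 6 of the 7 higher genes (85.7%), against 184 of all genes (25.2%). All 10 samples of the first cartridge, whatever their treatment, lay below all Combi samples in 58 of the 82 lower genes and 105 of all genes, and above them in all 7 higher genes and 20 of all genes. These 10 include the SARB samples by which the genes were called, so part of these counts follows from that choice. The SARB samples alone did not overlap the Combi samples in 80 of the 82 lower genes and all 7 higher genes. With cartridge as a block, 70 of the 82 lower genes and 5 of the 7 higher genes had a difference of the same sign. A size of at least 1.5-fold in that direction remained in 29 of the lower genes and none of the higher genes. Only FOS stayed called with the block, while 1 gene higher and 14 genes lower had an unadjusted p under 0.05 there, 7 of the latter being among the 82. The median log2 difference of the 82 genes was -0.43 with the block, with a median standard error of 0.46, against 0.23 without it.

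**Figure D2:**
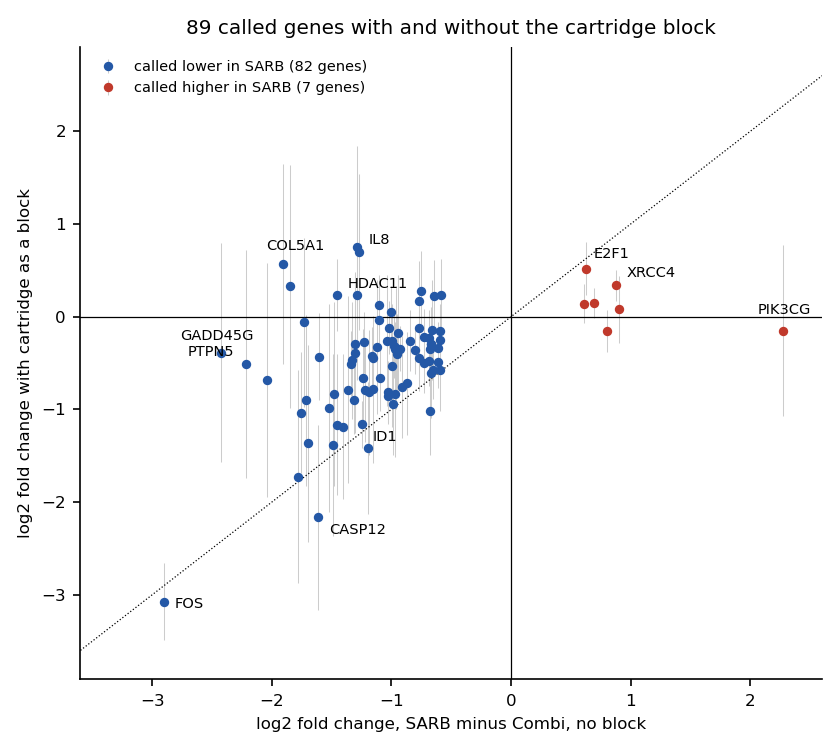
For the 89 called genes the log2 difference SARB minus Combi without a block is set against the same difference with cartridge as a block, bars are the standard errors of the blocked value, and the dotted line marks equality. FOS and ID1 lie near the line, most other genes lie closer to 0 with the block, and IL8 and COL5A1 lie on the other side of 0.

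The difference that stood apart was that of FOS, the immediate-early gene whose protein pairs with JUN to form the AP-1 transcription factor. FOS was counted at 568, 411 and 669 scaled counts in Combi replicates 1, 2 and 3 and at 68.6, 93.5 and 63.4 in SARB. The lowest Combi sample was thus far above the highest SARB sample. The mean was 7.47 times higher in Combi, a log2 difference of -2.90 for SARB minus Combi (standard error 0.19, edgeR adjusted p = 5.16e-10). Control cells held 118, 125 and 92.6 scaled counts, so Combi lay above control (log2 2.29) and SARB slightly below it (log2 -0.61). Both passed the call, SARB with a change just beyond 1.5-fold. With the cartridge block, which reaches Combi through replicate 1 alone, the log2 difference was -3.07 (standard error 0.42, edgeR adjusted p = 0.000793). On the first cartridge, FOS stood at 666 to 794 scaled counts in TQ and at 71.6, 91.1 and 97.6 in 5-FU. The study itself, from the panel and from qPCR, reported FOS as strongly raised by Combi and unaltered by SARB.

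The stretch just before the FOS transcription start is shown because FOS had the largest difference and was the 1 gene called with the cartridge block. It covers 150 bases of the plus strand at chr14:75278678-75278827 (RefSeq, GRCh38.p14), written 5′ to 3′ and ending at the base before the start, with a cyclic AMP response element half-site (TGACG) and a TATA box (TATAAA) in capitals. Both motifs were searched on both strands and do not overlap each other.

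FOS promoter: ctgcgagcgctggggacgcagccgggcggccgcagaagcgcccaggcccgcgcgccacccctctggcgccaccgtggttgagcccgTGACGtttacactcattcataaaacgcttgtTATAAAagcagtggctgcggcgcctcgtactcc

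The half-site begins 64 bases and the TATA box 33 bases before the start. Windows of 300 bases around gene starts held the half-site in 24.6% of all 35116 entries, in 28.7% of the 530 panel genes with an entry and in 15 of the 58 lower genes among them (25.9%). The TATA letters were in 11.5%, 8.87% and 6 of 58 (10.3%). A match of letters describes the window and is not a measured site.

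Of the 7 AP-1 and immediate-early factors on the panel, FOS and KLF4 were lower in SARB and none was higher. KLF4, a zinc finger factor of differentiated gut epithelium, had 254, 274 and 287 scaled counts in Combi and 116, 144 and 154 in SARB. The groups did not overlap (log2 -0.97, standard error 0.16, edgeR adjusted p = 0.000263), and the difference was -0.35 with the cartridge block. JUN, the partner of FOS, named here after its values were seen, was not called, with a log2 difference of -0.45 and a 95% interval of -0.82 to -0.08, and passed the call without SARB replicate 2 (log2 -0.65). JUN was nevertheless called higher than control in both SARB (log2 1.30) and Combi (log2 1.75). Among 11 feedback genes that ERK signaling induces, only DUSP4, a phosphatase that inactivates ERK, was called, at 797, 822 and 871 scaled counts in Combi and 483, 516 and 395 in SARB. Its log2 difference was -0.84 (standard error 0.17, edgeR adjusted p = 0.00169) and -0.26 with the block.

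**Figure D3:**
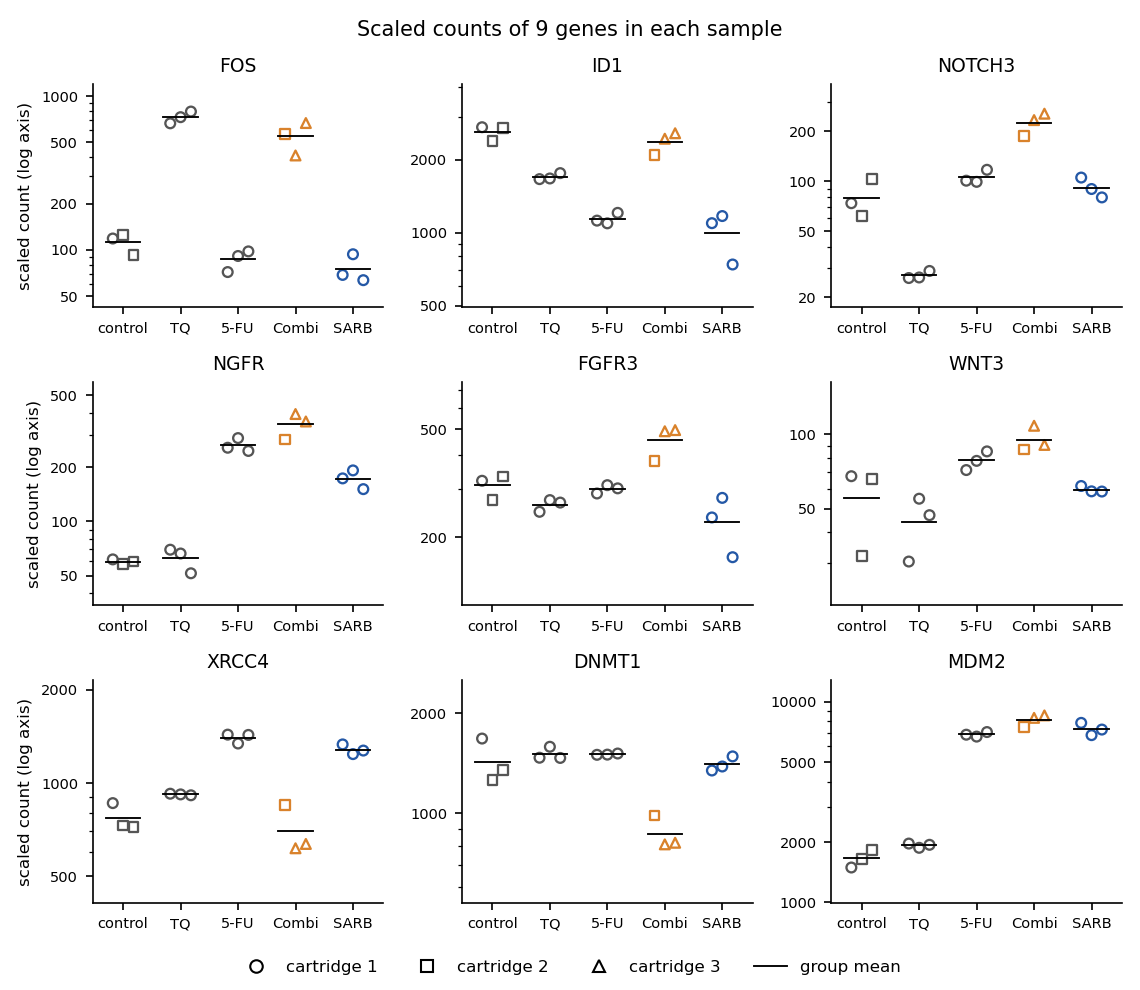
Scaled counts of 9 genes are plotted on log axes for every sample of the 5 groups, symbols give the cartridge and horizontal lines the group means. FOS is high in TQ and Combi and low in SARB, ID1 is low in SARB, TQ and 5-FU, DNMT1 is low in Combi alone, and MDM2 overlaps between SARB and Combi.

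ID1, an inhibitor of differentiation that dimerizes with basic helix-loop-helix factors and is a classical target of bone morphogenetic proteins, was low in SARB and near control in Combi. Combi held 2083, 2439 and 2570 scaled counts, control held 2721, 2381 and 2704, and SARB held 1094, 1171 and 739. No SARB sample came near either group, and the mean was 2.37 times lower than in Combi (log2 -1.25, standard error 0.14, edgeR adjusted p = 4.35e-06). With the cartridge block the log2 difference was -1.16 (standard error 0.25), with an unadjusted p of 0.000265 and an edgeR adjusted p of 0.0969. The TQ and 5-FU samples of the same cartridge held 1662 to 1760 and 1093 to 1207 scaled counts.

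Of 35 genes of the TGF-β, activin and BMP pathway, 5 were lower in SARB (14.3%, against 11.2% of all genes) and none was higher. LTBP1, which tethers latent TGF-β to the matrix, had 43.4, 56.7 and 47.9 scaled counts in Combi and 17.1, 16.8 and 10.9 in SARB. This was a log2 difference of -1.76 (standard error 0.31, edgeR adjusted p = 0.000561), and -1.03 with the cartridge block, at a level where only 2 of 3 SARB samples exceeded the background of the negative probes. INHBB, a subunit of activin B, lay lower still, at 24.2 to 34.1 scaled counts in Combi and 8.6 to 16.8 in SARB, and its call was lost without 1 sample (SARB replicate 1 or 3, or Combi replicate 2 or 3). ID2, the close relative of ID1, behaved otherwise, with 581, 584 and 558 scaled counts in Combi and 508, 574 and 425 in SARB. Its log2 difference of -0.20 had a 95% interval of -0.46 to 0.06, so a difference of 1.5-fold lay outside the interval, and TMM moved the value to 0.05.

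Most p53-induced genes were called higher than control in both treatments. Of 16 on the panel, 14 were called higher than control in SARB and 15 in Combi, where all genes gave 8.63% and 13.6%. Between SARB and Combi, 1 was called lower and none higher, and 10 had an interval within 1.5-fold. The following 5 genes of the list were named after their values were seen. MDM2, the ubiquitin ligase that turns p53 over, had 7484, 8324 and 8562 scaled counts in Combi, 7858, 6825 and 7277 in SARB and 1493 to 1833 in control, so the treated groups overlapped. Its log2 difference was -0.15 with an interval of -0.36 to 0.06, and the sign turned with TMM (0.11) and with the cartridge block (0.19). SFN, the 14-3-3 sigma protein that holds cells in G2, had 6195, 6407 and 6250 scaled counts in Combi and 6910, 6967 and 5712 in SARB, with an interval of -0.16 to 0.27. CDKN1A, the p21 inhibitor of cyclin-dependent kinases, had 5197, 6113 and 5864 scaled counts in Combi and 3733, 5352 and 4942 in SARB, and its interval of -0.65 to 0.06 did not exclude a 1.5-fold lower level. The log2 difference of CDKN1A turned positive with the cartridge block.

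FAS, a death receptor, lay lower in all SARB samples (592, 527 and 603 scaled counts) than in all Combi samples (741, 728 and 698). The log2 difference was -0.33 (standard error 0.11, edgeR adjusted p = 0.0479), under the 1.5-fold of a call, and 0.02 with the cartridge block. GADD45A, which answers DNA damage and other stress, came close to a call at 1524, 1391 and 1394 scaled counts in Combi and 1033, 765 and 1069 in SARB. Its log2 difference of -0.58 (standard error 0.13, edgeR adjusted p = 0.00323) was -0.62 with the block, and it passed the call in 6 of the 17 alternative settings of this gene. The 1 gene of the list that was called, IGFBP3, a binding protein of insulin-like growth factors, had only 22.9 to 28.3 scaled counts in Combi and 7.4 to 11.1 in SARB, was above background in 1 SARB sample, and lost its call in 4 of the 6 settings that leave out 1 sample.

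**Figure D4:**
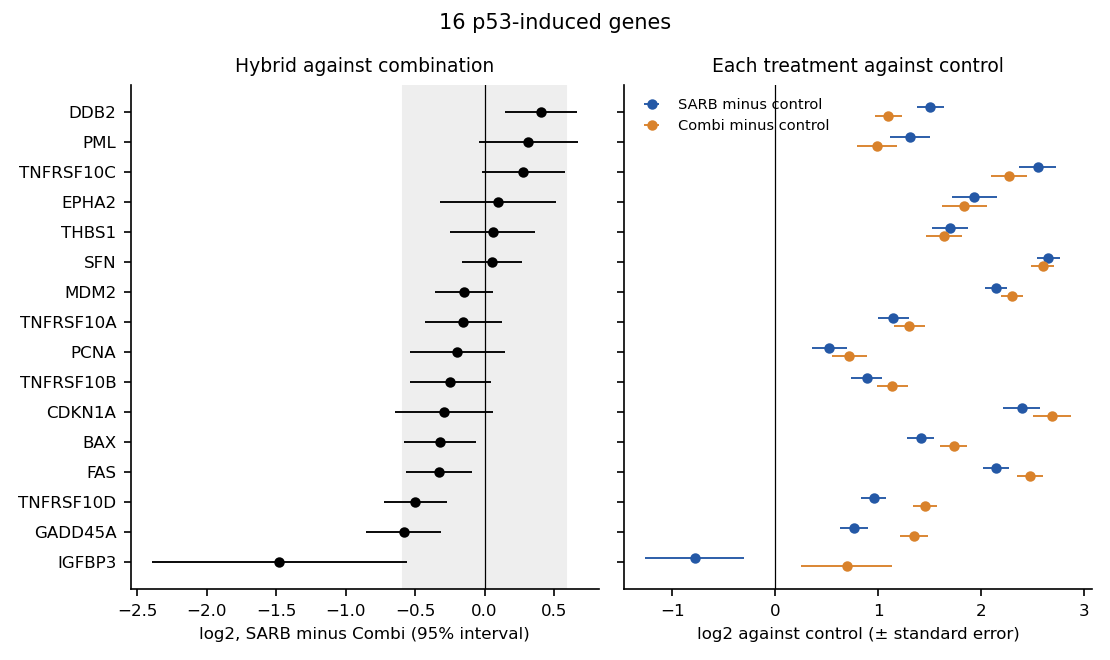
Left, the log2 difference SARB minus Combi of the 16 p53-induced genes with its 95% interval, where the grey band marks 1.5-fold, and right, the log2 difference of each treatment from control with its standard error. The intervals of 10 genes lie inside the band, IGFBP3 alone is called, and 14 genes in SARB and 15 in Combi were called above control.

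The genes called higher in SARB numbered 7. XRCC4, the partner of DNA ligase 4 in end joining, had 852, 616 and 637 scaled counts in Combi and 1334, 1242 and 1275 in SARB. It was 1.84 times higher in SARB (log2 0.88, standard error 0.12, edgeR adjusted p = 5.94e-05) and 0.34 with the cartridge block (standard error 0.17). Against control, XRCC4 was called higher in SARB (log2 0.74) and not called in Combi (log2 -0.14), and the 5-FU samples stood at 1343 to 1435 scaled counts. NF2, the merlin tumor suppressor that restrains Hippo signaling targets, followed the same order with 705, 654 and 620 scaled counts in Combi and 1070, 1065 and 880.5 in SARB. Its log2 difference was 0.61 (standard error 0.12, edgeR adjusted p = 0.00169) and 0.14 with the block, and the call was lost without SARB replicate 1 or 2 or Combi replicate 3.

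DNMT1, the methyltransferase that copies DNA methylation at replication, was the opposite kind, since SARB stayed near control and Combi lay below. Combi held 984, 806 and 816 scaled counts, SARB 1346, 1384 and 1485, and control 1680, 1259 and 1349. The log2 difference of 0.70 (standard error 0.12, edgeR adjusted p = 0.000302) was 0.15 with the cartridge block. STAG2, a subunit of the cohesin ring, had 425, 384 and 412 scaled counts in Combi and 798, 599 and 729 in SARB. The log2 difference of 0.80 (standard error 0.18, edgeR adjusted p = 0.00323) turned to -0.15 with the block, and control replicate 1 stood at 1052 against 597 and 536 in the controls of the second cartridge. E2F1, an activator of S phase genes, had 133, 124 and 132 scaled counts in Combi and 173, 194 and 228 in SARB (log2 0.62, standard error 0.13, edgeR adjusted p = 0.00294). Its value with the block was 0.52 (standard error 0.29), the nearest of the 7 to the value without it, and the call was lost without SARB replicate 3.

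The remaining higher genes encode PI3K subunits. PIK3R1, the regulatory subunit p85α, had 73.9 ± 24.6 scaled counts in Combi (SD, n = 3) and 148, 108 and 144 in SARB, every one of which lay above all Combi samples (log2 0.90, standard error 0.20, edgeR adjusted p = 0.00315), and 0.08 with the block. PIK3CG, a catalytic subunit typical of white blood cells, had 9.1, 5.6 and 3.2 scaled counts in Combi and 22.3, 28.8 and 31.5 in SARB. This log2 difference of 2.27 (standard error 0.50, edgeR adjusted p = 0.00323) was the largest in this direction, rested on a Combi level that no sample raised above background, and was -0.15 with the block.

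Receptor tyrosine kinases, which bind growth factors at the cell surface and feed the RAS and PI3K cascades, had a median difference of -0.80 against -0.32 for all genes, which was -0.55 with TMM and -0.36 with the cartridge block. Of 21 on the panel, 5 were lower in SARB (23.8%, against 11.2% of all genes) and none was higher. FGFR3, a fibroblast growth factor receptor, had 383, 491 and 496 scaled counts in Combi and 236, 279 and 169 in SARB. Control, at 323, 274 and 335, overlapped SARB and lay below Combi, and the log2 difference SARB minus Combi was -1.03 (standard error 0.15, edgeR adjusted p = 0.000111) and -0.86 with the block (standard error 0.30). FGFR4, its close relative, had 117, 233 and 217 scaled counts in Combi and 67.7, 101 and 63.9 in SARB, a log2 difference of -1.34 (standard error 0.21, edgeR adjusted p = 0.000174). The Combi sample of the second cartridge stood well below the other Combi samples in FGFR4, and the blocked value was -0.51.

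NGFR, the p75 neurotrophin receptor that was placed in this list although it has no kinase domain, was raised by both treatments. Control held 57.8 to 61.5 scaled counts, SARB 173, 192 and 151, and Combi 285, 394 and 358. All 3 groups were separate from each other, and SARB minus Combi was -1.03 on the log2 scale (standard error 0.14, edgeR adjusted p = 5.94e-05) and -0.81 with the block (standard error 0.33). RET, the receptor of glial-derived neurotrophic factors, was low throughout, with 49.5, 45.0 and 42.1 scaled counts in Combi, 25.7, 21.6 and 21.4 in SARB and 41.5 to 50.8 in control. Its log2 difference of -0.98 (standard error 0.27, edgeR adjusted p = 0.0152) stayed at -0.94 with the block, and the call was lost without SARB replicate 3 or Combi replicate 2.

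On the ligand side, 7 of 49 growth factors and cytokines were lower in SARB (14.3%, against 11.2% of all genes) and none was higher. SPP1, the secreted phosphoprotein osteopontin, had 62.6, 60.4 and 66.0 scaled counts in Combi, 31.7, 30.0 and 22.3 in SARB and 15.4 to 20.9 in control. Combi was called above control and SARB was not, and SARB minus Combi was -1.19 (standard error 0.28, edgeR adjusted p = 0.00531), or -0.81 with the block. The angiogenic factors FIGF and PGF, both of the VEGF family, showed the same order. FIGF had 42.4, 48.7 and 46.8 scaled counts in Combi and 18.9, 26.4 and 16.2 in SARB (log2 -1.20, standard error 0.32, edgeR adjusted p = 0.0121, and -1.42 with the block). PGF had 113, 144 and 139 in Combi and 50.6, 103 and 39.4 in SARB (log2 -1.12, standard error 0.28, edgeR adjusted p = 0.0074, and -0.33 with the block). EGF, the ligand of the epidermal growth factor receptor, had 20.8 to 30.4 scaled counts in Combi and 5.2 to 14.4 in SARB, which is near background. The calls of FIGF, PGF and EGF were lost without SARB replicate 3, and those of FIGF and EGF also without SARB replicate 1 or Combi replicate 2 or 3.

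In the Notch pathway a ligand on 1 cell binds a receptor on its neighbor, proteases then cleave the receptor and its inner fragment drives HES genes. Here 5 of 20 genes were lower in SARB (25%, against 11.2% of all genes) and none was higher. Against control, 8 of the 20 were called higher in Combi, where 13.6% of all genes were, and 2 in SARB, where 8.63% were. NOTCH3, a receptor, had 188, 234 and 256 scaled counts in Combi, 105, 89.9 and 80.0 in SARB and 73.8, 61.8 and 103 in control. SARB overlapped control and lay below every Combi sample (log2 -1.32, standard error 0.17, edgeR adjusted p = 3.1e-05), and the value with the cartridge block was -0.90 (standard error 0.37). NOTCH2, another receptor, had 450.4, 583 and 540.3 scaled counts in Combi and 366, 318 and 305 in SARB (log2 -0.68, standard error 0.12, edgeR adjusted p = 0.000593), with -0.34 under the block and no call after TMM. HES1, the transcriptional target, had 142, 167 and 163 scaled counts in Combi and 75.4, 106 and 35.0 in SARB (log2 -1.22, standard error 0.25, edgeR adjusted p = 0.00221, and -0.79 with the block). Here control, at 109, 113 and 157, lay nearer to Combi, and SARB was called below control. DLL4, a ligand, had 46.5 to 53.9 scaled counts in Combi and 15.7 to 29.1 in SARB, but its log2 difference of -1.29 turned to 0.23 with the block, and its call was lost without SARB replicate 3 or Combi replicate 2 or 3.

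Among 62 genes of NF-kB, interleukin and JAK-STAT signaling, 5 were lower in SARB (8.06%, against 11.2% of all genes) and none was higher. Against control, 13 of the 62 were called higher in Combi, where 13.6% of all genes were, and 6 in SARB, where 8.63% were. RELA, the p65 subunit of NF-kB, had 238, 447 and 433 scaled counts in Combi, 168, 230.1 and 180.2 in SARB and 134 to 145 in control (log2 -0.98, standard error 0.20, edgeR adjusted p = 0.00169). The Combi sample of the second cartridge nearly met the highest SARB sample, and the blocked value was -0.32. NFKBIA, the inhibitor that NF-kB induces against itself, had 507, 569 and 572 scaled counts in Combi and 286, 326 and 261 in SARB (log2 -0.93, standard error 0.14, edgeR adjusted p = 0.000111, and -0.34 with the block). IL8, a neutrophil chemokine and NF-kB target, was called above control in both treatments, with 128, 154 and 132 scaled counts in Combi and 80.5, 59.9 and 35.9 in SARB. Its controls differed by cartridge, at 7.7 on the first against 21.5 and 35.9 on the second, so that the log2 difference of -1.28 (standard error 0.27, edgeR adjusted p = 0.00272) turned to 0.70 with the block (standard error 0.84). STAT4, a signal transducer of interleukin 12, had 55.3 to 89.9 in Combi and 28.0 to 46.3 in SARB (log2 -0.87, and -0.72 with the block), and lost its call with TMM and without SARB replicate 3 or Combi replicate 1 or 3.

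Of 25 apoptosis genes, 2 were lower (8%, against 11.2% of all genes) and none was higher, and 11 had an interval within 1.5-fold. BIRC3, an inhibitor of apoptosis, had 19.2 to 29.5 scaled counts in Combi and 8.4 to 12.2 in SARB, lost its call without any 1 of the 6 samples and turned from -1.29 to 0.75 with the cartridge block. CASP12, an inflammatory caspase, was not above background in any sample.

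Of 44 genes of the extracellular matrix and integrins, 8 were lower in SARB (18.2%, against 11.2% of all genes) and none was higher. Against control, 12 were called higher in Combi and 7 in SARB, beside 13.6% and 8.63% of all genes. ITGB4, the hemidesmosome integrin that anchors epithelium to laminin, had 1956, 2349 and 2294 scaled counts in Combi and 1102, 884 and 965 in SARB. Control spanned 609 to 1174, so SARB lay within the control range and Combi above it, and SARB minus Combi was -1.16 (standard error 0.17, edgeR adjusted p = 0.000111). COL4A5, a chain of basement membrane collagen, had 318, 409.8 and 386 scaled counts in Combi, 170.5, 153 and 152 in SARB and 90.7 to 179 in control (log2 -1.23, standard error 0.17, edgeR adjusted p = 6.36e-05). With the cartridge block these values were -0.43 for ITGB4 and -0.28 for COL4A5. ITGA7, a laminin receptor known from muscle, had 34.7 to 45.2 scaled counts in Combi and 8.4 to 16.3 in SARB, a log2 difference of -1.73 that fell to -0.06 with the block.

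CDH1, or E-cadherin, which joins epithelial cells and binds β-catenin, had 448, 510.5 and 496 scaled counts in Combi and 312, 295 and 322 in SARB. The log2 difference of -0.65 (standard error 0.20, edgeR adjusted p = 0.0298) was lost with TMM and without SARB replicate 1 or 3 or Combi replicate 2 or 3, and it turned to 0.22 with the block. Its controls were 189 on the first cartridge and 204 and 436 on the second. In a list of 12 colon epithelial and stemness factors, 3 genes were lower in SARB (25%, against 11.2% of all genes), namely ITGB4, KLF4 and CDH1, and none was higher. Of 13 adhesion and CD133 genes that the study itself named from these samples, 1 was lower in SARB and none was higher. That is 7.69%, against 11.2% of all genes, and 6 of the 13 had an interval within 1.5-fold. The study's choice makes these genes no independent evidence.

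Of 25 genes of the RAS-ERK core, 5 were lower in SARB (20%, against 11.2% of all genes), none was higher, and 11 had an interval within 1.5-fold. MAPK3, or ERK1, had 287, 325 and 363 in Combi and 157, 196 and 112 in SARB (log2 -1.10, standard error 0.20, edgeR adjusted p = 0.000593). Control replicate 1 held 209 and the other controls 366 and 412, and the blocked value was -0.03. RASGRP2, a RAS family exchange factor, and RASA4, a RAS GTPase-activating protein, had log2 differences of -0.96 and -0.59, and each lost its call without SARB replicate 1 or 3 or Combi replicate 2 or 3, RASGRP2 also without Combi replicate 1 and RASA4 also with TMM. SHC3, an adaptor of neurons, was above background in no sample of either group. In the JNK and p38 cascade, 1 of 18 genes was lower in SARB, GADD45G, an activator of that cascade, whose SARB counts of 0.9, 6.0 and 2.2 and Combi counts of 14.1, 15.5 and 14.9 were at or below the background in all but 2 Combi samples.

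For the PI3K-AKT-mTOR axis, which carries growth factor signals to survival and protein synthesis, 2 of 23 genes were higher in SARB (PIK3R1 and PIK3CG, above). In the same list 1 gene was lower (4.35%, against 11.2% of all genes) and 10 had an interval within 1.5-fold. Of 16 PI3K-AKT genes that the study chose from these samples as low in SARB, 5 were lower in SARB than in Combi (31.2%) and none was higher, but that choice makes them no independent evidence. They included GNG7, CREB5 and MAPK3. CREB5, a CREB family transcription factor, had 41.4, 37.9 and 45.8 scaled counts in Combi and 12.9, 25.2 and 11.4 in SARB (log2 -1.40, standard error 0.36, edgeR adjusted p = 0.0104, and -1.18 with the block). GNG7, a G protein gamma subunit, had 21.2 to 25.8 in Combi and 3.5 to 16.8 in SARB, with control at 29.6 to 31.4 on both cartridges (log2 -1.49, and -1.38 with the block). CREB5 lost its call without SARB replicate 1 or 3 or Combi replicate 3, and GNG7 without those or Combi replicate 2. Of 15 genes of PKA, CREB factors and calcineurin, CREB5 alone was called and 7 had an interval within 1.5-fold. Of 29 calcium channels and G protein subunits, 3 were lower in SARB (10.3%, against 11.2% of all genes). They were GNG7 and the channel subunits CACNG6 (log2 -1.85, and 0.33 with the block) and CACNA2D2 (log2 -0.67, and -0.29 with the block). Both channel genes lost their call without SARB replicate 1 or 3 or Combi replicate 3, CACNG6 also without Combi replicate 1 or 2 and CACNA2D2 also with TMM.

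WNT signaling stabilizes β-catenin, which then switches on targets such as AXIN2 and MYC. Of 26 ligands, receptors and antagonists of this pathway, 2 were lower in SARB (7.69%, against 11.2% of all genes) and none was higher. Their median was -0.60, and -0.23 with the cartridge block. WNT3, a ligand, had 86.8, 108 and 90.5 scaled counts in Combi and 61.7, 58.7 and 58.6 in SARB (log2 -0.68, standard error 0.21, edgeR adjusted p = 0.0317). Its blocked value was -1.02 (standard error 0.47), with control at 67.6 on the first cartridge and at 32.2 and 65.7 on the second. FZD3, a WNT receptor, had 134, 162 and 169.8 in Combi and 94.3, 132 and 89.7 in SARB (log2 -0.60, standard error 0.16, edgeR adjusted p = 0.0146, and -0.25 with the block). The calls of WNT3 and FZD3 were lost with TMM and without SARB replicate 1 or 3 or Combi replicate 2 or 3.

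Of 33 genes of the β-catenin core and its targets, 2 were lower in SARB (6.06%, against 11.2% of all genes), none was higher and 17 had an interval within 1.5-fold. RNF43, a ubiquitin ligase that removes WNT receptors, had 87.9, 81.0 and 79.3 scaled counts in Combi and 39.4, 40.7 and 27.6 in SARB. SARB was called below control and below Combi (log2 -1.24 against Combi, standard error 0.27, edgeR adjusted p = 0.00294), with -0.67 under the block. CCND3, a D-type cyclin, was raised by both treatments against control, and its difference of -0.59 lost its call with TMM and without SARB replicate 1 or 3 or Combi replicate 2 or 3 and turned to 0.23 with the block. CTNNB1, the gene of β-catenin, had 3175, 2784 and 2864 scaled counts in Combi and 2356, 2465 and 2995 in SARB. Its interval of -0.40 to 0.06 lay within 1.5-fold, and TMM moved the log2 difference from -0.17 to 0.11.

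By qPCR the study reported reduced AXIN2, DKK2, FGF9, ID2 and MYC, with SARB suppressing AXIN2, DKK2 and FGF9 more than Combi did. In the panel counts none of these genes was called between SARB and Combi with all samples. AXIN2 passed the call without Combi replicate 1 (log2 -0.66) and DKK2 without SARB replicate 2 (log2 -1.63). MYC had 1157, 921 and 1022 scaled counts in Combi, 1273, 958 and 1032 in SARB and 1336 to 1670.1 in control, with an interval of -0.18 to 0.33. AXIN2, a negative regulator of the pathway, had 41.4, 62.8 and 63.9 in Combi, 34.3, 46.7 and 40.2 in SARB and 76.6 to 110.5 in control. AXIN2 was called below control in both treatments, and its log2 difference of -0.51 between them had an interval of -0.96 to -0.05 (edgeR adjusted p = 0.111), with 0.04 under the block. DKK2, a secreted WNT antagonist, had 16.4 to 20.8 scaled counts in Combi and 6.0, 16.8 and 6.1 in SARB, an interval of -2.05 to -0.10 (edgeR adjusted p = 0.114). FGF9, a growth factor, had 20.2 to 28.3 in Combi and 7.9 to 22.8 in SARB, with an interval of -1.53 to 0.10. At these counts the intervals of DKK2 and FGF9 include both no or nearly no difference and a large one. Of 12 WNT genes that the study named from these samples, none was called and 6 had an interval within 1.5-fold.

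Chromatin and DNA methylation regulators gave 1 higher gene, DNMT1, and 7 lower genes of 38 (18.4%, against 11.2% of all genes), while 20 had an interval within 1.5-fold. With TMM, 4 of the 38 were higher and 2 lower, beside 39 and 54 of all 730 genes. IDH1, the cytosolic isocitrate dehydrogenase whose product feeds DNA and histone demethylases, had 276, 228 and 253 scaled counts in Combi and 127, 99.5 and 112 in SARB. SARB was called below control and Combi was not, and SARB minus Combi was -1.15 (standard error 0.19, edgeR adjusted p = 0.000263) and -0.45 with the cartridge block. The histone deacetylases HDAC11, HDAC5 and HDAC4 had log2 differences of -1.46, -0.77 and -0.75. HDAC11 had 146, 184 and 210.3 scaled counts in Combi and 60.0, 85.1 and 57.7 in SARB (standard error 0.25, edgeR adjusted p = 0.000402), with control at 63.0 on the first cartridge and at 145 and 187 on the second. With the block the 3 values were 0.24 for HDAC11, -0.12 for HDAC5 and 0.28 for HDAC4. TMM ended the calls of HDAC5 and HDAC4, and that of HDAC4 was also lost without SARB replicate 1 or 3 or Combi replicate 2 or 3.

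Of 35 cyclins, cyclin-dependent kinases and their inhibitors, 1 was higher (E2F1), 3 were lower (8.57%, against 11.2% of all genes) and 14 had an interval within 1.5-fold. With TMM, 7 of the 35 were higher and 1 lower, beside 39 and 54 of all 730 genes. CDKN1C, the p57 inhibitor, had 121, 174 and 204 scaled counts in Combi and 76.3, 88.7 and 84.4 in SARB (log2 -1.02, standard error 0.17, edgeR adjusted p = 0.000364, and -0.12 with the block). E2F5, a repressor of cell cycle genes, had 205, 202 and 193 in Combi and 117, 133 and 114 in SARB (log2 -0.73, standard error 0.16, edgeR adjusted p = 0.00291, and -0.50 with the block), and TMM ended its call. Of 42 genes of DNA damage signaling and repair, 1 was higher (XRCC4), 2 were lower (4.76%, against 11.2% of all genes) and 26 had an interval within 1.5-fold. With TMM, 5 of the 42 were higher and 1 lower. RAD52, a mediator of homologous recombination, had 242, 300.2 and 321 scaled counts in Combi and 155, 149.8 and 129.5 in SARB, and ATM, the kinase that senses double-strand breaks, had 92.9 to 135 and 56.4 to 81.4. Their log2 differences of -1.01 and -0.77 turned to 0.05 and 0.17 with the block, and ATM lost its call with TMM and without SARB replicate 3 or Combi replicate 3. Of 18 replication and cohesin genes, STAG2 alone was called and 10 had an interval within 1.5-fold.

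Of 6 histone genes, 4 were called below control in SARB and 5 in Combi, and none was called between the treatments. HIST1H3H, a replication-dependent H3 gene, had 1861, 2158 and 1974 scaled counts in Combi and 2461, 2038 and 1176 in SARB, against 16132 to 29164 in control, a log2 difference from control of -3.51 in Combi and -3.59 in SARB. Whether its probe also captures near-identical H3 transcripts was not tested. H3F3A, which is transcribed outside S phase, had 2666 to 2944 scaled counts in Combi and 2666 to 3107 in SARB, and its interval of -0.18 to 0.25 lay within 1.5-fold. Of 5 heat shock proteins none was called either. HSP90B1, a chaperone of the endoplasmic reticulum, had 1881, 1337 and 1460 in Combi and 1408, 926 and 1044 in SARB (interval -0.84 to -0.09), and HSPB1, a small cytosolic chaperone, had 531, 1449 and 1120 in Combi and 657, 930 and 474 in SARB (interval -1.18 to -0.04). Leaving out 1 sample brought each of these past the call, without SARB replicate 1 for HSP90B1 and without SARB replicate 2 or Combi replicate 1 for HSPB1.

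**Figure D5:**
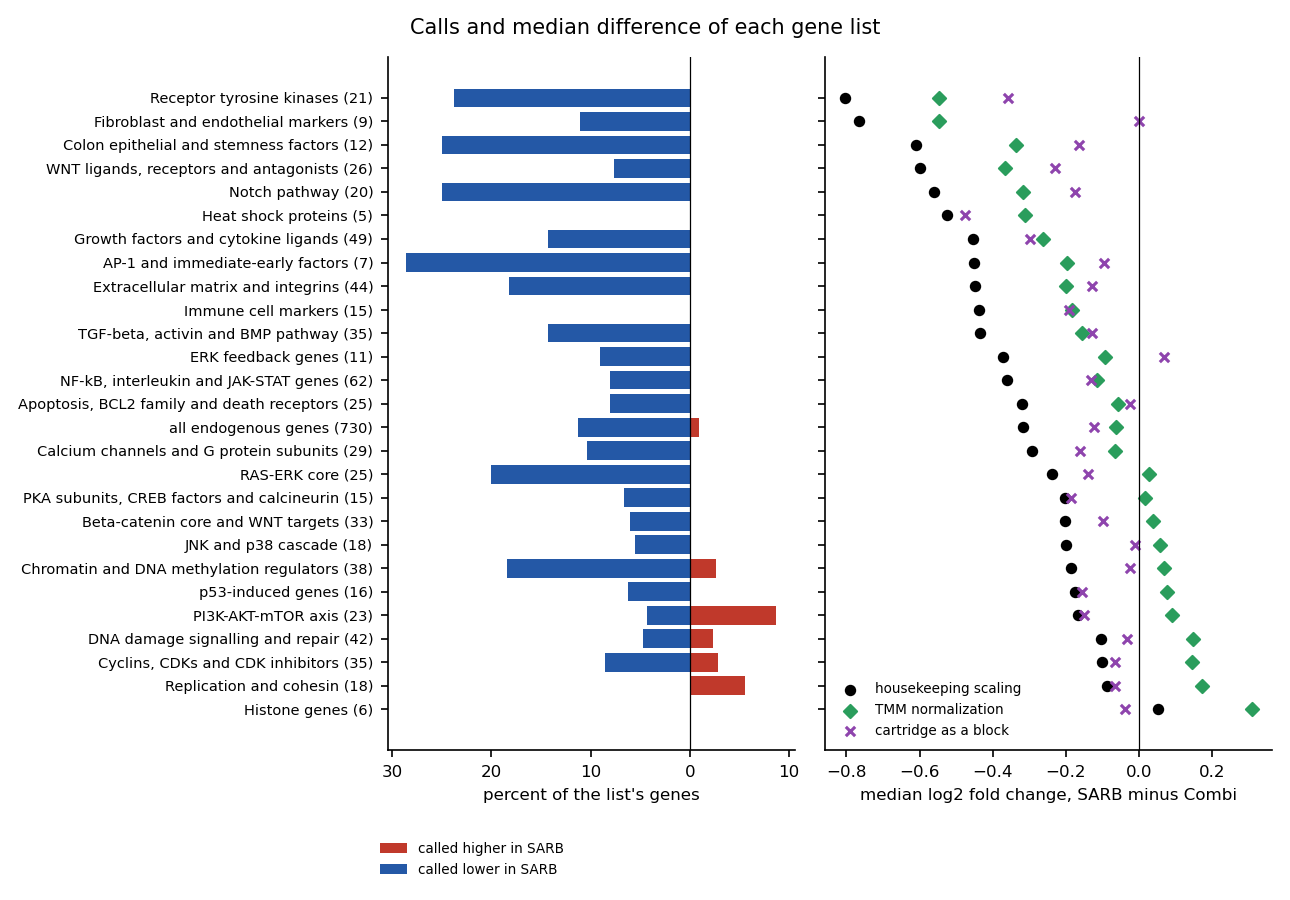
Left, the percent of each list's genes (number on the panel in brackets) called higher or lower in SARB than in Combi, and right, the list's median log2 difference with housekeeping scaling, with TMM and with cartridge as a block. All genes together had 11.2% lower and a median of -0.32, receptor tyrosine kinases had the lowest median under housekeeping scaling (-0.80) but not with the block, and with the block the medians lay closer to 0 than with housekeeping scaling in most lists.

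Genes with few counts made up part of the lower set. Of the 82, 19 had a mean of fewer than 20 raw counts in SARB, 56 were above the background of the negative probes in all 6 samples, where 451 of all genes were, and 10 were above it in no SARB sample. Among the 12 largest differences this held for GADD45G, PTPN5 (a tyrosine phosphatase of neurons, log2 -2.21), COL6A6 (a collagen VI chain, -2.04), COL5A1 (a fibrillar collagen chain, -1.91), CACNG6, SHC3, GATA1 (an erythroid transcription factor, -1.70) and CASP12. Of these, GADD45G alone kept its call without any 1 sample, and the others lost it without SARB replicate 3 and at least 1 other sample. Setting counts under 20 to 20 turned PTPN5 to 0.17, COL6A6 to 0.18, SHC3 to 0.28 and CASP12 to 0.24. This floor was applied before scaling, so a gene floored in all 6 samples takes its difference from the scaling alone. The setting therefore cannot decide the direction of such genes. PLA2G4C, a phospholipase A2, stood somewhat higher, at 28.1 to 32.5 scaled counts in Combi and 8.3 to 10.8 in SARB (log2 -1.71, standard error 0.39, edgeR adjusted p = 0.00376, and -0.90 with the block).

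Genes of cells that the culture should not hold lay in part at background and in part above it. Of 15 immune cell markers, none was called between SARB and Combi, 3 were above background in all SARB samples and 4 in all Combi samples, and 7 were above it in no SARB sample and 7 in no Combi sample. Their summed level was 345 to 477 scaled counts in SARB, 438 to 538 in Combi and 427 to 514 in control. Of 9 fibroblast and endothelial markers, COL5A1 alone was called lower, 6 were above background in no SARB sample and 6 in no Combi sample, and the sum was 51.6 to 158 in SARB and 119 to 163 in Combi. COL5A1 turned to 0.57 with the cartridge block, with control at 6.1 on the first cartridge and 32.2 and 43.3 on the second.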

How the data were processed

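Transcripts of HCT116 cells were counted with the NanoString nCounter PanCancer Pathways panel from 50 ng of total RNA. The raw counts deposited are whole-number counts per probe with control probes included. The authors also deposited a normalized signal, made in nSolver 3.0 (per the study's methods) by subtracting the negative probe background and scaling to the geometric mean of the housekeeping genes. The authors' fold changes and p-values against control were not used.

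Raw counts were scaled to the geometric mean of 40 housekeeping genes and tested with edgeR 4.0.16 (R 4.3.3), quasi-likelihood, with 5 groups of 3 samples in 1 fit and the contrast SARB minus Combi. The call was set at 0.05 for the p-value after Benjamini-Hochberg adjustment, with a change of 1.5-fold or more, and 95% intervals are the log2 difference with its standard error and the t quantile. Background was the mean of 8 negative probes plus 2 SD. Cartridges were read from the scanner names in the labels. Alternatives used TMM, DESeq2 1.42.0, limma 3.58.1 on the deposited signal, filters, blocks and omitted samples. The edgeR step was tested on simulated data.

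Named genes were the non-overlapping called genes with the 12 largest differences in each direction, up to 4 called members of each gene list, the genes the study measured by qPCR, and up to 3 members of lists with no call whose interval was narrowest. The members and lists were chosen with earlier results of these data known. Nothing beyond the word biological replicate says that the 3 samples of a group came from separate cultures. The p-values therefore measure the spread between samples within groups, pooled over all 5 groups rather than over SARB and Combi alone. A fit of only the 6 SARB and Combi samples gave 8 higher and 60 lower genes. Some members of the lists are not reported here by name.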

Additional observations from a re-analysis of the deposited data

How the results depend on the processing

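Against 7 genes higher and 82 lower, TMM normalization gave 39 and 54, DESeq2 with its own size factors 48 and 40, and a 2-fold threshold 1 and 46, and TMM moved the median log2 difference of all genes from -0.32 to -0.063. Cartridge as a block gave 0 and 1, as did the block with TMM, a setting added after seeing the data, and Combi from the second cartridge alone gave 2 and 12. Leaving out 1 sample gave 6 to 12 higher and 40 to 148 lower genes. Non-overlapping genes numbered 247, 472 with Combi from the second cartridge alone and 280 to 412 without 1 sample. Intervals within 1.5-fold numbered 206, 75 with the block, 12 with block and TMM, 111 with Combi from the second cartridge alone and 173 to 185 without 1 sample. The causes were not tested beyond the smaller sample numbers.

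A replicate block kept all 7 higher genes and 63 of the 82 lower genes. Deviations of same-numbered SARB and Combi samples from their group means, over 461 genes, had r of 0.19, 0.16 and -0.09 for replicates 1, 2 and 3, so the numbers were not taken as pairs.

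With the cartridge block the log2 difference changed sign for ATM (0.17), AXIN2 (0.042), BIRC3 (0.75), CACNG6 (0.33), CCND3 (0.23), CDH1 (0.22), CDKN1A (0.39), COL5A1 (0.57), DLL4 (0.23), FAS (0.024), HDAC11 (0.24), HDAC4 (0.28), IL8 (0.70), JUN (0.13), MDM2 (0.19), RAD52 (0.046), MYC (-0.19), PIK3CG (-0.15) and STAG2 (-0.15). With TMM it did for CTNNB1 (0.11), HIST1H3H (0.14), ID2 (0.047) and MDM2 (0.11), and with DESeq2's own size factors for CDKN1A (0.033), CTNNB1 (0.18), FAS (0.020), HIST1H3H (0.21), ID2 (0.11) and MDM2 (0.19). Counts under 20 set to 20 turned CASP12 (0.24), COL6A6 (0.18), PTPN5 (0.17) and SHC3 (0.28). In that setting the scaling alone gives the difference of a gene floored in every sample. Housekeeping genes of at least 100 counts turned H3F3A (-0.057), MYC (-0.019) and SFN (-0.041), and Combi from the second cartridge alone turned HIST1H3H (0.020), HSPB1 (0.36) and MYC (-0.089). Leaving out 1 sample gave -0.013 (SARB replicate 2) to 0.096 for H3F3A, -0.32 to 0.17 (SARB replicate 3) for HIST1H3H and -0.052 (SARB replicate 1) to 0.16 for MYC. Of the 62 called genes named, 33 kept the call without any 1 sample, 49 with TMM and 30 under both.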

Other observations

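The housekeeping genes that set the scale were not level between the SARB and Combi samples, where treatment and cartridge cannot be told apart. Across the 40 genes the log2 difference SARB minus Combi ran from -1.04 in GPATCH3 to 0.68 in ERCC3, and 3 of the 40 passed 1.5-fold. Their median of -0.04 largely follows from the scaling to these same genes. When the scale was set by the 26 housekeeping genes of at least 100 counts, 121 genes were called lower, against 82.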
